A study of Mus musculus with 24 samples.

Results

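Nuclear RNA of control cardiomyocytes (CMs) was compared between postnatal day 1 (P1) and P7, using 7 of the 24 libraries of the series. The members are the 3 P1 libraries with replicate numbers 2, 3 and 4 and the 4 P7 libraries with replicate numbers 1 to 4 whose labels give the genotype XMLC2-Casp2fl/fl. P1 replicate 1 was left out, as the study did. The study read its high mitochondrial, ribosomal and translation genes as a sign of cytoplasmic contamination. Alternative fits with all 24 libraries bring this replicate back. These C57BL/6N mice carried both floxed *Casp2* alleles but no Cre transgene, so the caspase gene was meant to be intact. Each library came from 1 pool of ventricles, of 15 hearts at P1 and 6 hearts at P7, taken regardless of sex, from which nuclei positive for the centriolar satellite protein PCM1 were sorted. The 8 libraries of XMLC2+Casp2fl/fl mice of the same days (4 per day), in which Cre under the XMLC2 promoter removes *Casp2* in CMs, are set beside the controls and share no library with them. Sequencing of 3′ ends was used (QuantSeq), and reads were counted over whole genes, introns included.

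In the first week after birth, the cell cycle activity of mouse CMs falls. Many CMs go through a round of DNA synthesis that ends without cell division, and become binucleated or polyploid. In the same days they exchange fetal for adult sarcomere isoforms, build the calcium release units of the sarcoplasmic reticulum and turn from glucose to fatty acids as fuel. Nuclear RNA, rich in introns and in noncoding transcripts, follows transcription more closely than whole-cell RNA does.

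The sorted nuclei carried the RNA of CMs, whose 15 markers all had reads. As CPM, with the reads on genes as the total, the CM markers summed to 23735 to 55165 at P1 and 61490.1 to 90533 at P7, against 287 to 331 at P1 and 142 to 285 at P7 for 15 fibroblast markers, 491 to 945 at P1 and 266 to 466 at P7 for 15 endothelial markers, 228 to 305 at P1 and 98.3 to 207 at P7 for 12 macrophage markers and 5.83 to 38.4 at P1 and 4.82 to 46.3 at P7 for 9 erythroid markers. The mural, atrial CM, Schwann and neuronal, epicardial and lymphocyte lists reached at most 520.1 CPM in any of the 7 libraries. Markers without a read in the 7 libraries included Bmp10 among the atrial, Egfl7 among the endothelial, Higd1b among the mural, Cd68 and Itgam among the macrophage, Upk3b and Msln among the epicardial, and Slc4a1, Hbb-bh1 and Hbb-y among the erythroid markers. On this scale of library totals, the endothelial, macrophage and fibroblast sums were lower in every P7 library than in any P1 library. With TMM factors as the scale, no tested member of these lists lay lower in every P7 library. In the edgeR fit none of them had an unadjusted p below 0.05 downward. The part of these sums in the results was not tested. In such pooled material, fewer nuclei of a type and less RNA per nucleus cannot be told apart. In P7 replicates 1 to 4 the fibroblast sums were 149, 142, 274 and 285 CPM. The macrophage sums were 123, 98.3, 175 and 207 CPM, and the endothelial sums 389, 266, 349.9 and 466 CPM. The same pools had 41.1, 36.7, 54.7 and 54.2% of their uniquely placed reads on no gene. Whether the sums depend on that share was not tested.

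The libraries differed between the days in more than their genes. Reads on genes were 1243967, 1544100 and 1300426 at P1 and 2283962, 2420016, 1920330 and 1635688 at P7, a gap that an exact two-sided permutation test put at p = 0.0571, the smallest value 4 against 3 libraries can give (adjusted over 3 measures, p = 0.0857). Of the uniquely placed reads, 73.9, 61.2 and 60.7% lay on no annotated gene at P1 and 41.1, 36.7, 54.7 and 54.2% at P7, again without overlap (exact permutation p = 0.0571). The 95% Wilson intervals of these shares were at most 0.104 percentage points wide and cover counting error only. At equal depth 10850, 14656 and 13870 genes were detected at P1 and 14165, 15102, 16894 and 13971 at P7 (exact permutation p = 0.229). P1 replicate 2 stood apart, with 73.9% of its reads on no gene, 23735 CPM on the CM markers against 51839 and 55165 in the other P1 pools, and the fewest genes. P7 replicate 1 had no read on the Y-linked genes *Ddx3y*, *Uty*, *Kdm5d* and *Eif2s3y* and 1509 reads on *Xist*, where the other 6 libraries had 22 to 338 Y-linked reads and 6 to 464 *Xist* reads. Results are therefore also given without P1 replicate 2 and from a fit with the share outside genes as a covariate.

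**Figure D1:**
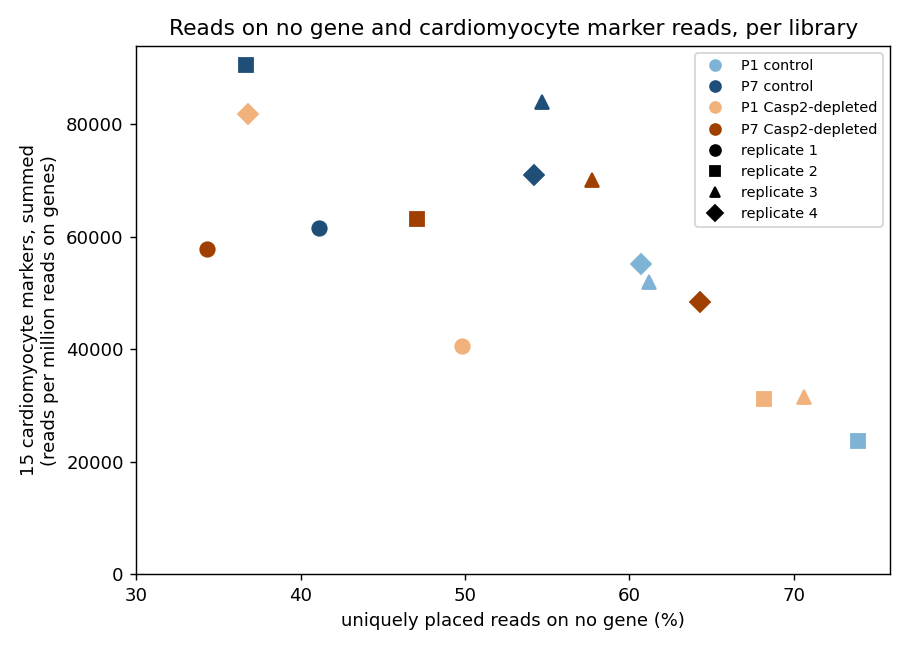
Summed reads on 15 CM markers, in CPM with the reads on genes as the total, against the percentage of uniquely placed reads on no gene, with 1 point per library of the 4 groups. P1 control replicate 2, at 73.9% and 23735, lies at the lower right, and P1 Casp2-depleted replicate 4, at 36.8% and 81692, lies among the P7 libraries.

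Of 20368 genes tested, 10 passed both limits of a call, 0.05 for the adjusted p and 1 for the size of the log2 fold change (0.0491% of those tested), and all 10 were higher at P7. The 9 described here encode sarcomere proteins (*Ttn*, *Mybpc3*, *Myh6*), a stress-responsive nuclear and sarcomeric protein (*Ankrd1*), the microtubule-binding protein tau (*Mapt*), a lipid transfer protein (*Osbp*) and 3 noncoding RNAs (*Mhrt*, *Neat1* and the 18S ribosomal RNA *Rn18s-rs5*). Without a correction, 732 genes were higher and 410 lower at p below 0.05 (3.59% and 2.01%). In 1404 genes all P7 libraries exceeded all P1 libraries (6.89%), and in 583 every P7 library lay below (2.86%). On library totals these counts were 919 and 1139. Over all genes tested the log2 fold change had a median of 0.21, with 55.0% above 0, and scaling by library totals instead of TMM factors moved that median to -0.14, so fold changes are read against this shift. Among the 155 genes with 1000 reads or more per library on average the median was 0.91 and 91.6% were above 0. Without P1 replicate 2 their median was 0.56, on library totals 0.44 and with the share of reads outside genes as a covariate 0.25. The percentage of genes that lay higher without overlap was 17.6% among the 3050 genes with 100 reads or more per library on average and 32.9% among those 155. An unadjusted p below 0.05 upward was held by 280 of those 3050 genes and by 77 of those 155. The list counts below are set beside the 6.89% and 3.59% of all genes, which lie under these shares of well-read genes.

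Which genes were called differed between fits, and a gene that missed the threshold is not thereby shown to be unchanged. The default edgeR fit gave every gene the spread of the trend over all genes, and the quasi-likelihood dispersion of *Ttn* was 0.132 in it against 1.7 in a robust fit that let single genes keep their own. Each SE below is from the default fit and takes the spread of the trend, not that of the single gene. DESeq2 called 88 genes (75 higher and 13 lower, 4 of them among the 10), limma-voom with TMM factors 49 (43 higher and 6 lower, 1 among the 10), and edgeR after its filterByExpr filter none (950 genes had an unadjusted p under 0.05). The robust fit called 2 genes, *Mhrt* (adjusted p = 9.78e-05) and *Mapt* (adjusted p = 0.00855), and gave *Ttn* an adjusted p = 0.626. Without P1 replicate 2, *Ttn* and *Mhrt* remained called, and with the share of reads outside genes as a covariate 2 genes did, *Mhrt* among them, whereas *Ttn* and the other 7 called genes described here were not. That share did not overlap between the days, so this fit cannot fully tell the covariate and the day apart. *Mhrt* passed in 15 of 19 alternative settings, more than any other gene. Without P7 replicate 2, 5 of the calls were lost, those of *Rn18s-rs5*, *Ankrd1*, *Mapt* and *Osbp* among them. Without P1 replicate 4 the calls of *Neat1*, *Mapt* and *Osbp* were lost (adjusted p = 0.0625, 0.481 and 0.292), that of *Mapt* was lost without P7 replicate 4 (adjusted p = 0.0671), and that of *Osbp* without P1 replicate 3 or P7 replicate 1 (adjusted p = 0.281 and 0.234). The levels in each library do not depend on the test and are given below as CPM scaled by TMM factors, in the order of P1 replicates 2, 3 and 4 and then P7 replicates 1 to 4.

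**Figure D2:**
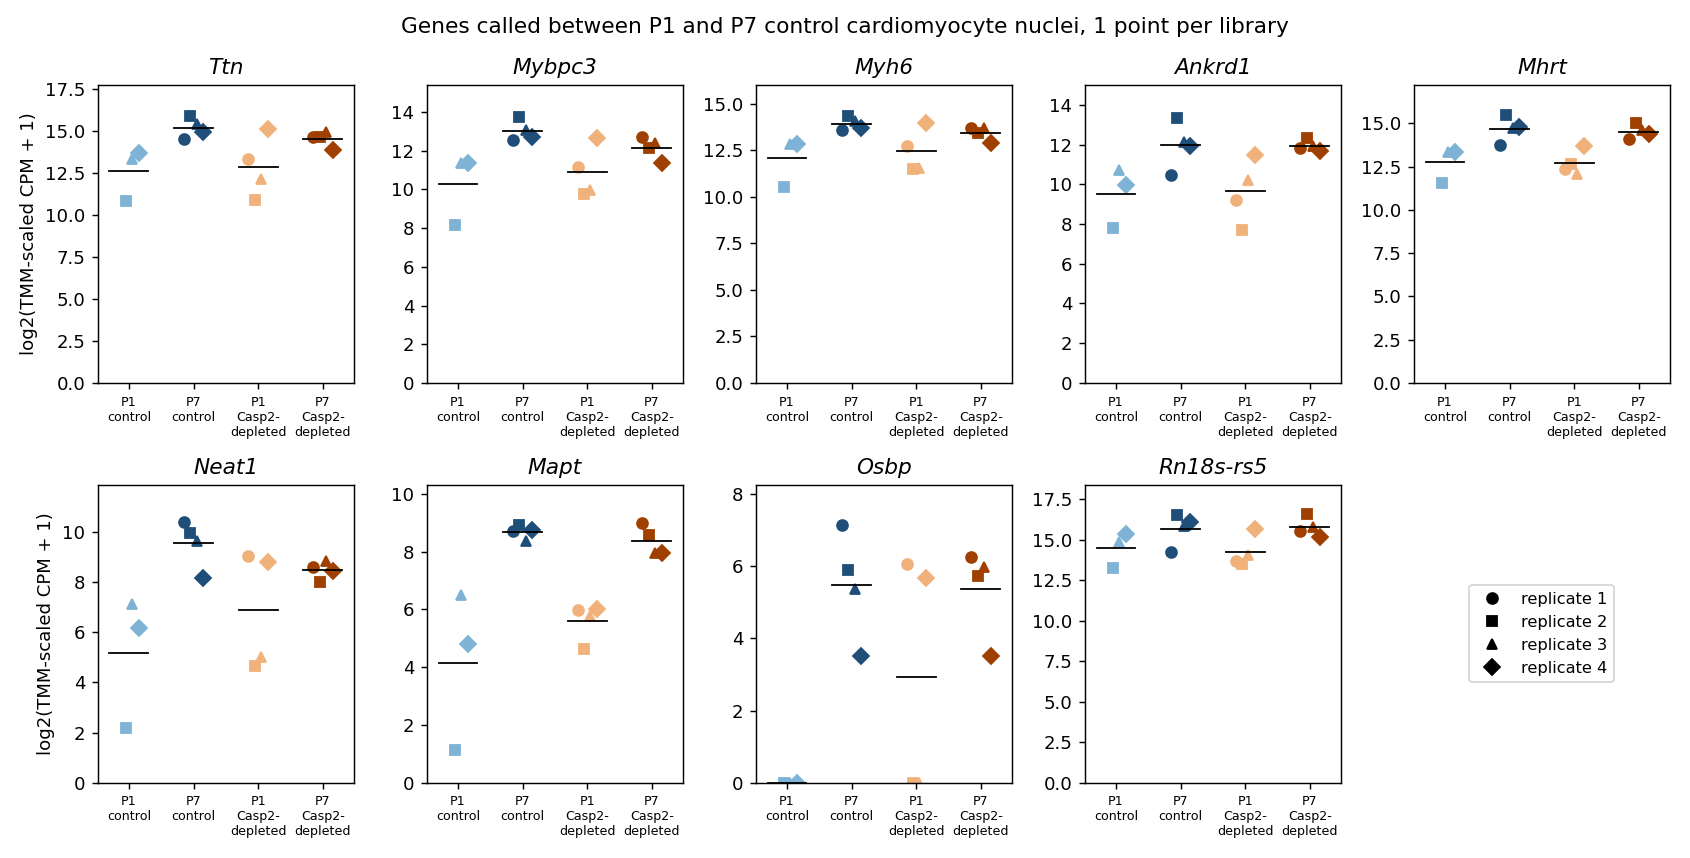
Level of 9 called genes in each library, as log2 of TMM-scaled CPM plus 1, for P1 and P7 controls and P1 and P7 Casp2-depleted CM nuclei, with bars at the mean. In the control groups 7 of them do not overlap; the P7 library that reaches into the P1 range is replicate 1 for *Ankrd1* and *Rn18s-rs5*.

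Of the called genes, 3 encode giant and thick-filament proteins of the sarcomere, and *Ttn* and *Mybpc3* held the smallest adjusted p beside *Mhrt*. *Ttn* (ENSMUSG00000051747, chr2:76534136-76812891 on GRCm39), the spring that spans the sarcomere from Z-disc to M-band, had 1805, 10387 and 13523 CPM at P1 and 23539.9, 60449, 43887 and 31673 at P7. Every P7 pool lay above every P1 pool, and the lowest P1 value was that of replicate 2. The log2 fold change was 2.22 ± 0.26 (SE, adjusted p = 1.09e-13), and 1.70 without P1 replicate 2 (adjusted p = 3.76e-06). With the share of reads outside genes as a covariate the value was 1.08 and the call was lost (adjusted p = 0.0858). *Mybpc3* (ENSMUSG00000002100, chr2:90948489-90966861), the cardiac myosin-binding protein C of the thick filament, had 284, 2650.4 and 2669 CPM at P1 and 6086, 13504, 8475 and 6612 at P7. Its log2 fold change was 2.21 ± 0.38 (adjusted p = 2.47e-05). Without P1 replicate 2 the value was 1.66 (adjusted p = 0.196), and with the covariate 1.06 (adjusted p = 0.769). *Myh6* (ENSMUSG00000040752, chr14:55179367-55205887), the fast alpha-myosin heavy chain of the adult mouse ventricle, had 1495, 7400.0 and 7329.7 CPM at P1 and 12321, 21048, 17347 and 13059 at P7, a log2 fold change of 1.56 ± 0.30 (adjusted p = 7.65e-04) that was 1.08 without P1 replicate 2 (adjusted p = 1.00) and 0.65 with the covariate (adjusted p = 0.834).

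The starts of these 3 genes are shown because the genes moved together. The annotated *Myh6* gene runs head to head with *Mhrt*, a called RNA from the opposite strand, but the window at the canonical *Myh6* start does not reach *Mhrt*. Each window runs from 250 bases before to 50 bases after the start of the canonical GENCODE transcript on GRCm39, read 5′ to 3′ on the strand of the gene, at chr14:55204176-55204475 (minus strand), chr2:90948239-90948538 (plus strand) and chr2:76812750-76813049 (minus strand). Capitals mark matches on either strand to the TEAD (MCAT) letters CATTCC, the GATA letters AGATAA, the MEF2 letters TAAAAATA or the TATA letters TATAAA.
Myh6: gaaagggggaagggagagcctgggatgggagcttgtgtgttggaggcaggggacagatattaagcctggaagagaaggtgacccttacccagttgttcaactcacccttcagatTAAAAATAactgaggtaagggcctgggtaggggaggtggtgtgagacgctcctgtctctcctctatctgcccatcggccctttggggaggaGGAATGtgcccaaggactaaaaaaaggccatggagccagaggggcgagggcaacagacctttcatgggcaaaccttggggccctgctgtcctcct
Mybpc3: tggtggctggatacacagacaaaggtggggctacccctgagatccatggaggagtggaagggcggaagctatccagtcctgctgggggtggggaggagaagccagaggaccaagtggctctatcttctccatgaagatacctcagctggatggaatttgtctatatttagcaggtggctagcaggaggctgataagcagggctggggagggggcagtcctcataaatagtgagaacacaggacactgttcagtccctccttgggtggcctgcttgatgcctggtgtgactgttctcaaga
Ttn: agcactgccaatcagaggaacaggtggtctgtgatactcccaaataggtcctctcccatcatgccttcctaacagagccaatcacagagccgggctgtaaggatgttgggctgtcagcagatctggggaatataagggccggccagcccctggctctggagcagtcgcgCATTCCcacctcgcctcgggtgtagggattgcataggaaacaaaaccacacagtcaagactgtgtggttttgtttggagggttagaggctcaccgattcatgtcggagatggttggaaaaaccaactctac
The *Myh6* window held a MEF2 match at bases -136 to -129 and a TEAD match, on the other strand, at -45 to -40. *Ttn* held a TEAD match at -81 to -76, and none of these exact letters were in the *Mybpc3* window. Other spellings of the sites were not searched, so a window without a match is not shown to lack sites of these factors. Of 21770 windows of protein-coding genes, 14.0% held the TEAD letters, 10.6% the GATA, 2.2% the MEF2 and 13.2% the TATA letters. Promoter activity was not measured, since the reads come from 3′ ends and priming sites within genes.

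The other adult sarcomere genes had log2 fold changes in the same direction, of which none passed the adjusted threshold. In the whole adult list, 20 of 20 tested members had a log2 fold change above 0, and 12 lay above every P1 library in all P7 libraries. The median was 1.33, against a median of 0.21 and 6.89% without overlap over all genes. An unadjusted p below 0.05 upward was held by 14 members and by 3.59% of all genes. Among the 155 genes with 1000 reads or more per library on average, 77 had one. *Tnni3*, the adult cardiac troponin I, had 55.2, 591 and 786 CPM at P1 and 1858, 2332, 1648 and 1488 at P7 (log2 fold change 1.94 ± 0.51, adjusted p = 0.207). *Myl2*, the ventricular regulatory light chain, had 311, 1353 and 1362 CPM at P1 and 2296, 3528, 2098 and 1816 at P7 (log2 fold change 1.27 ± 0.45). Neither passed the adjusted threshold, although their P7 libraries all lay above the P1 libraries. The M-band genes *Myom1* (log2 fold change 1.32 ± 0.45) and *Myom2* (1.96 ± 0.82), tropomyosin *Tpm1* (1.28 ± 0.43) and the Z-disc genes *Nebl* (1.35 ± 0.59), *Ldb3* (1.12 ± 0.50) and *Myoz2* (2.76 ± 1.35) likewise had no overlap. *Tnnt2* and *Tnnc1*, the cardiac troponins T and C, had log2 fold changes smaller than their SE, 0.17 ± 0.27 and 0.22 ± 0.41. *Tnnt2* was at 7230.0, 18948 and 18899 CPM at P1 and 11896, 24191, 15738 and 15827 at P7. Without P1 replicate 2 the list median was 0.86 with 5 members at an unadjusted p below 0.05, and with the share of reads outside genes as a covariate it was 0.07.

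Fetal counterparts of these proteins went in both directions. Of 13 tested members 9 had a log2 fold change above 0 (69.2% against 55.0% of all genes). None passed and none had an unadjusted p below 0.05 in either direction. *Tnni1* and *Myh7*, the fetal partners of *Tnni3* and *Myh6*, had log2 fold changes below 0. *Tnni1*, the slow skeletal troponin I of the fetal heart, had 608, 1263 and 914 CPM at P1 and 689, 562, 356 and 463 at P7 (log2 fold change -0.84 ± 0.54, adjusted p = 0.684). *Myh7*, the beta-myosin heavy chain, had 73.2, 84.3 and 173 CPM at P1 and 22.4, 57.4, 93.3 and 13.5 at P7 (log2 fold change -1.24 ± 0.89). P7 replicate 1 reached into the P1 range of *Tnni1* and P7 replicate 3 into that of *Myh7*. *Tnnt1* had 31.2, 54.8 and 49.1 CPM at P1 and 70.9, 172, 93.3 and 161 at P7, without overlap (log2 fold change 1.46 ± 1.11), and *Myh7b* had 192 to 532 CPM at P1 and 478 to 904 at P7. *Acta1*, *Myl7* and *Tnnt3* had no read at P1 and 0 to 16 reads per library at P7, so their fold changes are known only as bounds. The list median was 0.70 with the fitted values of these 3, 0.47 with them at the bound that 3 reads over the P1 group give, and 0.35 over the other 10 members. It rested on single libraries, at 0.02 without P7 replicate 2 and 1.27 without P1 replicate 4 (0.74 without P1 replicate 2), and it turned to -0.19 with the covariate and -0.40 with all 24 libraries in the fit.

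**Figure D3:**
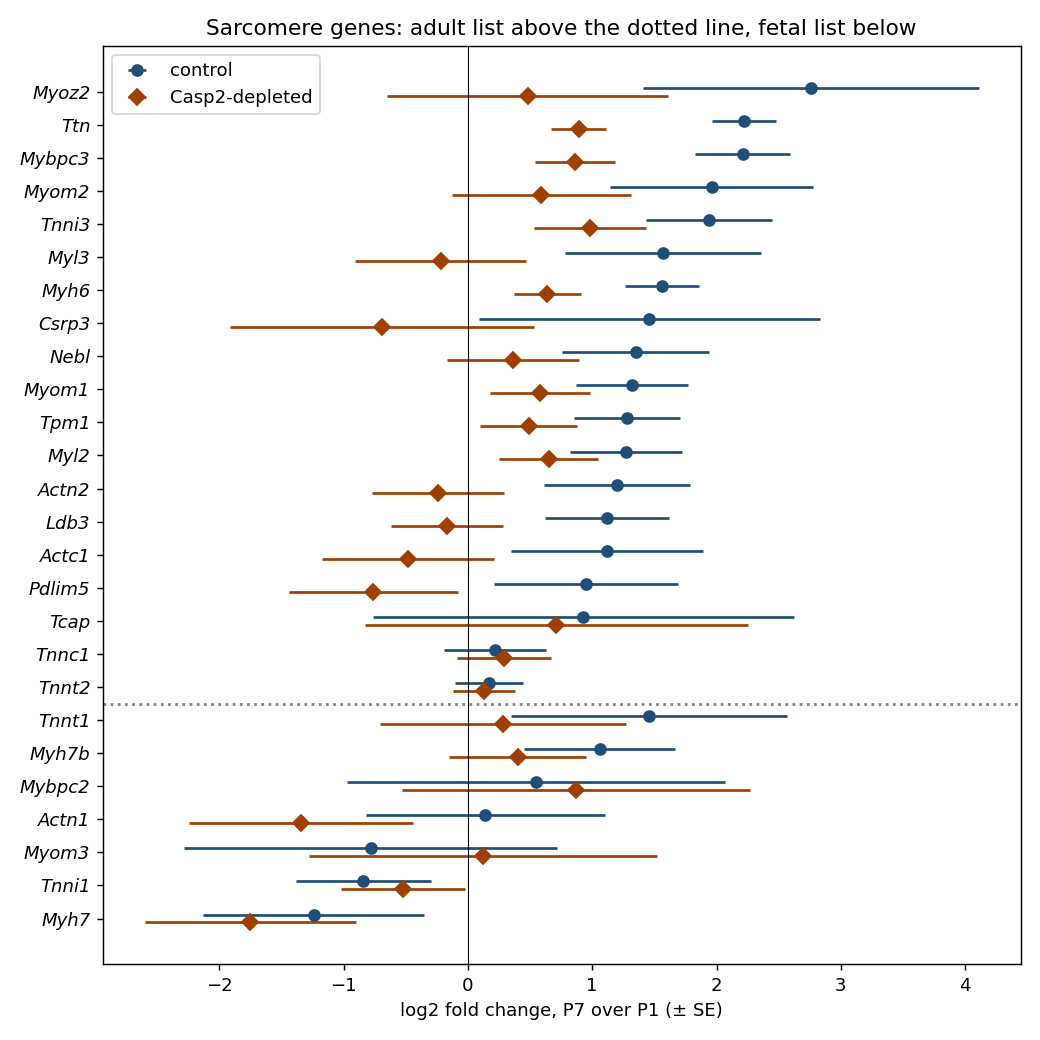
Log2 fold change of P7 over P1 with its SE for 19 adult and 7 fetal sarcomere genes with 20 reads or more per library on average, in controls and in Casp2-depleted CM nuclei. All 19 adult genes lie above 0 in the controls, with *Tnnt2* at 0.17 the lowest, whereas *Tnni1* and *Myh7* lie at -0.84 and -1.24.

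Ratios between the reads of 2 genes within a library need no scaling but can still differ with the quality of the library, and 6 of them were examined. The ratio of *Tnni3* to *Tnni1* reads was 0.0908, 0.468 and 0.860 in the P1 pools and 2.70, 4.15, 4.63 and 3.21 in the P7 pools. The ratio was thus below 1 in all 3 P1 pools and above 1 in all 4 P7 pools. For *Myh6* to *Myh7* the ratio was 20.4, 87.8 and 42.3 at P1 and 549.8, 366, 186 and 971 at P7, a difference of the mean log2 ratio of 3.37 where that of the troponins was 3.44. *Myh7* reads could be affected by counting, since 89.9% of *Mhrt* lies within *Myh7* on the other strand. Against *Tnnt2*, *Ttn* reads had ratios of 0.250, 0.548 and 0.716 at P1 and 1.98, 2.50, 2.79 and 2.00 at P7, and *Mybpc3* reads 0.0393, 0.140 and 0.141 at P1 and 0.512, 0.558, 0.539 and 0.418 at P7. For *Mapt* against *Tnnt2* they were 1.66e-04, 0.00478 and 0.00142 at P1 and 0.0356, 0.0199, 0.0209 and 0.0273 at P7. In all 6 ratios the days did not overlap, and no test is given because the pairs were picked after the levels were seen. The lowest value of each ratio was that of P1 replicate 2, the pool with 73.9% of its reads on no gene. The part of that share in the ratios was not tested. Each of the 6 differences moved by less than 1 SD between pools when any single library was left out, where the SD includes P1 replicate 2.

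**Figure D4:**
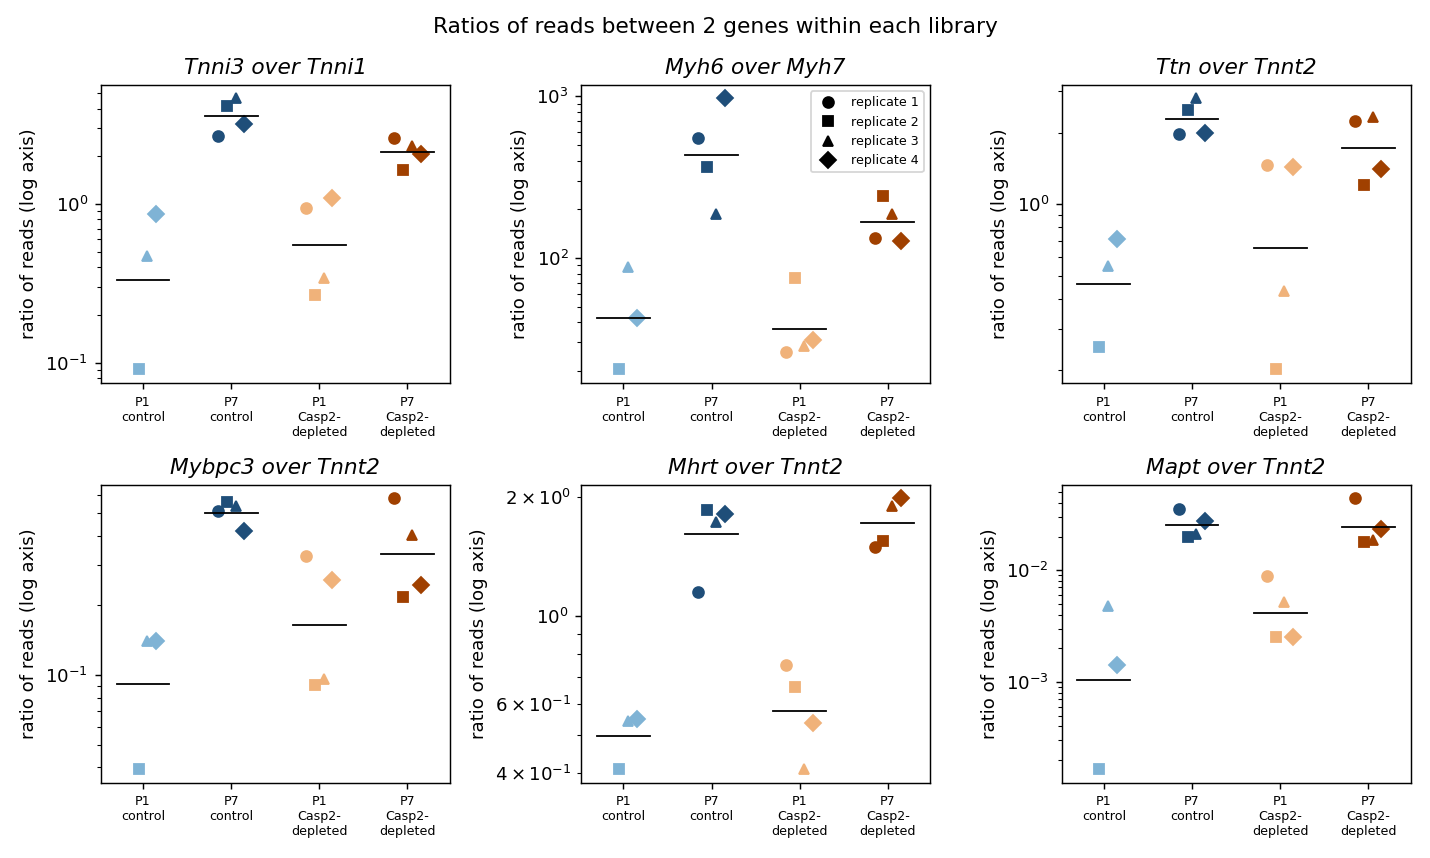
Ratio of reads of 2 genes within each library, on a log axis, for the 4 groups, with bars at the geometric mean. In the controls no P7 library falls into the P1 range in any panel, for example 2.70 to 4.63 against 0.0908 to 0.860 for *Tnni3* over *Tnni1*.

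*Mhrt* (ENSMUSG00000097652, chr14:55205795-55229058), a long noncoding RNA of the myosin heavy chain locus, was the gene called in the most settings. Its level was 2968, 10271 and 10399 CPM at P1 and 13625, 44795, 27014 and 28599.9 at P7, with a log2 fold change of 1.86 ± 0.27 (adjusted p = 5.08e-08) that was 1.42 without P1 replicate 2 (adjusted p = 0.00430) and 1.32 with the share of reads outside genes as a covariate (adjusted p = 2.95e-04). The gene starts 93 bases inside the annotated *Myh6* gene on the opposite strand, so the 2 run head to head, and it then crosses *Myh7*. Relative to *Tnnt2*, *Mhrt* was at 0.411, 0.542 and 0.550 at P1 and 1.15, 1.85, 1.72 and 1.81 at P7. Because the strand setting of the counting is not given in the sources used here, reads of *Mhrt* and of its antisense partners cannot be told apart with certainty.

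Of the other nuclear noncoding RNAs, *Neat1* (ENSMUSG00000092274, chr19:5874736-5897132), the scaffold of paraspeckles, had 3.60, 141 and 72.1 CPM at P1 and 1350.3, 996, 803 and 290.0 at P7. Its range within P7 was wide, but the lowest P7 pool still exceeded the highest P1 pool (log2 fold change 3.57 ± 0.70, adjusted p = 0.00110), whereas without P1 replicate 2 the adjusted p was 0.490 at a log2 fold change of 2.98, and with the covariate 0.806 at 2.16. *Malat1*, an abundant RNA of nuclear speckles, had 14432, 59927 and 38263 CPM at P1 and 66553, 115827, 61822 and 48637 at P7. With an adjusted p = 0.00315 it passed the test but not the fold change limit (log2 fold change 0.96 ± 0.20), and the groups overlapped. *Xist*, which coats the inactive X chromosome, had 3.60, 94.1 and 99.8 CPM at P1 and 786, 333, 104 and 212 at P7 (log2 fold change 2.45 ± 0.78, adjusted p = 0.658), with the highest value in the P7 pool that had no Y-linked read. In the list of 24 tested RNAs, 14 had a log2 fold change above 0 (58.3% against 55.0% of all genes) and the median was 0.38 (-0.04 with library totals as the scale, 0.08 without P1 replicate 2, 1.05 without P1 replicate 3 and -0.25 with the covariate). *Rn18s-rs5* (ENSMUSG00000119584, chr17:40157244-40159092), one of many near-identical copies of 18S ribosomal RNA, had 9632, 29368 and 41291 CPM at P1 and 19311, 94811, 57823 and 68982 at P7, with overlapping groups (log2 fold change 1.17 ± 0.21, adjusted p = 6.98e-05). Its log2 fold change was 0.72 without P1 replicate 2 (adjusted p = 1.00), 0.49 with the covariate (adjusted p = 0.900) and -0.07 under quantile normalization.

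*Mapt* (ENSMUSG00000018411, chr11:104122024-104222946) encodes tau, which binds and stabilizes microtubules. It was nearly silent in P1 replicate 2, with 2 reads, and had 1.20, 90.6 and 26.9 CPM in the P1 pools against 423, 481, 328 and 433 in the P7 pools. The 4 P7 pools lay close together and all above the P1 pools (log2 fold change 3.39 ± 0.77, adjusted p = 0.0218). Without P1 replicate 2 the log2 fold change was 2.78 with an adjusted p = 1.00, and with the covariate 2.70 with an adjusted p = 0.769. Among 44 microtubule genes tested, 32 were above 0, 12 lay higher without overlap (27.3% of them against 6.89% of all genes), and the median was 1.00 (0.67 without P1 replicate 2, 0.66 without P7 replicate 1 and 0.36 with the covariate). The median was 0.49 over the 38 members with reads on both days, and 0.94 with the 6 unread at P1 at their bound. Among the most read, the spectraplakins *Dst* (log2 fold change 1.35 ± 0.57) and *Macf1* (1.26 ± 0.51) and the binding proteins *Map4* (1.28 ± 0.54) and *Clip1* (1.47 ± 0.60) did not overlap, while the kinase *Mast4* had -0.02 ± 0.52. *Akap6*, the anchor of the nuclear envelope that recruits the microtubule-organizing centre in CMs, had 130.2, 421 and 363 CPM at P1 and 985, 838, 714 and 665 at P7 (log2 fold change 1.39 ± 0.56). The gene of the sorting antigen, *Pcm1*, had 16.2, 247 and 23.8 CPM at P1 and 123, 92.6, 222 and 77.0 at P7 (log2 fold change 0.43 ± 0.86, adjusted p = 1.00).

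Calcium handling and channel genes gave no call. Of the calcium handling genes, 25 of 29 tested members had a log2 fold change above 0, 7 lay above every P1 library in all P7 libraries (24.1% against 6.89% of all genes and 17.6% of genes with 100 reads or more per library on average) and the median was 0.74. The median was 0.51 without P1 replicate 2, 0.26 on library totals and 0.07 with the covariate. *Casq2*, the calcium-binding calsequestrin of the cardiac reticulum, had 139, 444 and 323 CPM at P1 and 525, 1454, 1078 and 931 at P7 (log2 fold change 1.72 ± 0.59). The calcium pump gene *Atp2a2* (log2 fold change 1.34 ± 0.58), the genes of the luminal calcium-binding proteins *Srl* (1.64 ± 0.62) and *Hrc* (3.18 ± 1.35) and the T-type channel gene *Cacna1g* (1.90 ± 0.82) also lay higher in every P7 pool, and the release channel *Ryr2*, with 0.80 ± 0.27, and the L-type channel *Cacna1c*, with 0.44 ± 0.29, overlapped. Among 29 sodium and potassium channel genes, 21 were above 0 and 9 lay higher without overlap (against 6.89% of all genes), but 1 alone had an unadjusted p below 0.05 upward (3.59% over all genes). The median of these channel genes was 1.14, 0.79 without P1 replicate 2 and 0.68 with the covariate. Those without overlap included *Fgf13* (log2 fold change 1.56 ± 0.41, adjusted p = 0.175), which modulates sodium channels, and the potassium channel gene *Kcnd2* (0.92 ± 0.56).

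*Ankrd1* (ENSMUSG00000024803, chr19:36089352-36097506), a titin-bound protein that responds to stretch, had 221, 1705 and 1001 CPM at P1 and 1395, 10462, 4441 and 3881 at P7. The groups overlapped through P7 replicate 1 (log2 fold change 2.37 ± 0.43, adjusted p = 1.15e-04), and P7 replicate 2 was the highest. The log2 fold change was 1.85 without P1 replicate 2 (adjusted p = 0.279) and with the covariate 1.56 (adjusted p = 0.769). *Nppa*, the natriuretic peptide that marks fetal and stressed myocardium, had 0, 14.0 and 39.6 CPM at P1 and 44.3, 18.0, 15.7 and 1.49 at P7 (log2 fold change 0.15 ± 1.95). In the list of fetal and stress genes, 9 of 10 tested members were above 0, and the median was 1.40. That median was 2.59 without P1 replicate 3, 0.68 with all 24 libraries in the fit and -0.04 with the covariate. *Osbp* (ENSMUSG00000024687, chr19:11943057-11971478), a carrier of cholesterol between membranes, had no read in any P1 pool and 270, 81, 62 and 14 reads in P7 replicates 1 to 4. Against a limit of 3 reads over the P1 group, its P7 mean was at least 90.6-fold higher (adjusted p = 0.0221), and without P1 replicate 2 the adjusted p was 0.804, and with the covariate 0.834. Of the Casp2-depleted P1 pools, replicates 1 and 4 did hold *Osbp*, at 66.2 and 49.8 CPM.

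At cell contacts, 20 of 25 tested members had a log2 fold change above 0, 6 lay above every P1 library in all P7 libraries (against 6.89% of all genes) and the median was 0.96. That median was 0.56 without P1 replicate 2, where no member had an unadjusted p below 0.05 upward against 6 with all libraries, and with the covariate it was 0.15. *Pkp2*, a desmosomal plakophilin, had 12.6, 129 and 44.4 CPM at P1 and 372, 298, 176 and 179 at P7 (log2 fold change 2.05 ± 0.85). *Nrap* (1.96 ± 0.88), *Ctnna1* (1.76 ± 0.78) and *Pkp4* (1.35 ± 0.63) did not overlap either, in contrast to the most read member, *Ctnna3* (0.56 ± 0.35). All 19 tested genes of the dystrophin complex and costamere were above 0, but at a median of 0.32 close to that of all genes (-0.13 with library totals as the scale, -0.09 with the covariate and 0.53 without P1 replicate 4), with *Dmd* at 0.64 ± 0.37. *Cavin4*, a muscle protein of caveolae and T-tubules, had 0, 2.11 and 0 CPM at P1 and 56.3, 61.0, 52.2 and 5.23 at P7.

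Most fuel and respiration genes had log2 fold changes above 0, without a call. For fatty acid oxidation, 32 of 34 tested members had a log2 fold change above 0, 9 lay above every P1 library in all P7 libraries (26.5% against 6.89% of all genes) and the median was 1.19, and 6 had an unadjusted p below 0.05 upward (3.59% over all genes). *Acadm*, the medium-chain acyl-CoA dehydrogenase, had 1, 8 and 17 reads in the P1 pools and 307, 138, 149 and 98 in the P7 pools (log2 fold change 4.03 ± 1.36, adjusted p = 0.658). *Fabp3*, the fatty acid carrier of muscle, had 43.2, 255 and 270.1 CPM at P1 and 1160.1, 725, 493 and 595 at P7 (log2 fold change 1.97 ± 0.63), and the transporter *Cd36* had 60.0, 253 and 200.4 CPM at P1 and 838, 499, 378 and 291 at P7 (1.55 ± 0.66). None of the 34 passed the adjusted threshold. In oxidative phosphorylation, 65 of 73 tested members had a log2 fold change above 0, 12 lay above every P1 library in all P7 libraries (16.4% against 6.89% of all genes) and the median was 1.32, but 1 member alone had an unadjusted p below 0.05 (*Ndufa5*, without a read at P1 and with 5, 11, 47 and 10 reads at P7). Of genes with 100 reads or more per library on average, 17.6% lay higher without overlap. The most read members were *Ndufa10* (log2 fold change 1.30 ± 0.74), *Sdhc* (0.73 ± 0.79), *Ndufs1* (0.50 ± 0.83) and *Atp5po* (0.04 ± 0.77). Transcripts of the mitochondrial genome, which can reach a nuclear preparation from outside the nucleus, had a median log2 fold change of -0.09 over 8 genes (0.13 under quantile normalization, -0.56 without P1 replicate 2, 0.58 without P1 replicate 3 and -0.97 with the covariate), with *mt-Nd1* at 110.4, 756 and 423 CPM at P1 and 414, 540.0, 276 and 379.7 at P7.

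Among nuclear receptors and energy regulators, 26 of 29 tested members had a log2 fold change above 0, 10 lay above every P1 library in all P7 libraries (34.5% against 6.89% of all genes) and the median was 1.36. The median was 1.03 over the 26 members with reads on both days, and 1.36 with the 3 unread at P1 at their bound. *Esrra*, an activator of mitochondrial genes, had 31.2, 194 and 32.5 CPM at P1 and 314, 493, 261 and 372 at P7 (log2 fold change 2.07 ± 0.78). Its coactivator gene *Ppargc1b* (1.41 ± 0.59) and the muscle regulator *Perm1* (3.43 ± 1.67) also lay above the P1 range, while *Ppara* had 0.74 ± 0.49 and *Esrrg* 0.75 ± 0.52. Of the glycolysis and glycogen genes, 24 of 32 tested members had a log2 fold change above 0, 6 lay above every P1 library in all P7 libraries (18.8% against 6.89% of all genes and 17.6% of genes with 100 reads or more per library on average) and the median was 0.75. *Slc2a4*, the insulin-responsive glucose transporter, had 0, 2 and 1 reads at P1 and 42, 30, 71 and 86 at P7, and the muscle glycogen phosphorylase *Pygm* had a log2 fold change of 1.80 ± 0.89. Without P1 replicate 2 the medians were 0.69 for fatty acid oxidation, 0.94 for oxidative phosphorylation, 0.93 for the receptors and 0.38 for glycolysis and glycogen. With all 24 libraries in the fit, the left-out P1 replicate 1 among them, the first 3 were 0.29, -0.21 and 0.89. With the share outside genes as a covariate the 4 were 0.23, -0.05, 0.37 and -0.17. Without P1 replicate 4 the glycolysis median was 1.43, and without P7 replicate 2 that of the receptors was 0.90.

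Regulators of splicing held the second largest number of members with an unadjusted p below 0.05, 11 of 37 against 3.59% of all genes. Among the 3050 genes with 100 reads or more per library on average, 280 had one upward. In the list 15 lay higher without overlap (40.5% against 6.89% of all genes). The median was 1.13, 0.77 without P1 replicate 2, 0.57 with all 24 libraries in the fit and -0.10 with the covariate. *Rbm20*, which sets titin isoforms, had 847, 2551 and 2952 CPM at P1 and 5655, 7867, 4320.5 and 4479 at P7 (log2 fold change 1.40 ± 0.38, adjusted p = 0.238), and *Rbm24* had 1.52 ± 0.55. The RNA helicase gene *Ddx5* had 15, 40 and 52 reads at P1 and 617, 480, 476 and 488 at P7. Its P7 pools lay within a narrow range and all above the highest P1 pool (log2 fold change 3.68 ± 0.94, adjusted p = 0.130). Its paralog *Ddx17* had 2.19 ± 0.77. Outside the list, *Pnisr*, a gene of nuclear speckles, and *Nexn*, which encodes an actin-binding protein of the Z-disc, came short of the adjusted threshold, with log2 fold changes of 1.69 ± 0.41 (adjusted p = 0.0620) and 1.53 ± 0.37 (adjusted p = 0.0526).

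Transcription factors of the heart ranged from log2 fold changes near 0 to large ones at few reads. Of this list, 26 of 28 tested members had a log2 fold change above 0, 6 lay above every P1 library in all P7 libraries (21.4% against 6.89% of all genes and 17.6% of genes with 100 reads or more per library on average) and the median was 0.74. This median was 0.53 without P1 replicate 2, 0.40 without P7 replicate 1 and -0.33 with the covariate. *Gata4* had 189, 557 and 656 CPM at P1 and 1348, 1205, 664 and 808 at P7 (log2 fold change 1.11 ± 0.54) and *Prdm16* 1.33 ± 0.59, without overlap in both. *Hopx*, a homeodomain cofactor, had 0, 6 and 1 reads at P1 and 271, 109, 62 and 87 at P7 (log2 fold change 5.55 ± 1.68, adjusted p = 0.606). The most read factor, *Myocd*, had 0.29 ± 0.36 and *Tbx20* 0.14 ± 0.59. In cyclic nucleotide signalling, 9 of 33 lay higher without overlap (27.3% against 6.89% of all genes), led by the kinase subunit *Prkar1a* (0, 27 and 9 reads at P1, 363, 376, 183 and 126 at P7) and including the beta-adrenergic receptor *Adrb1* (log2 fold change 2.15 ± 0.93) and the phosphodiesterase *Pde4d* (1578 to 2806 CPM at P1, 3229.6 to 7249.9 at P7). Of the muscle ubiquitin ligases, 8 of 23 did (34.8% against 6.89% of all genes), among them *Trim55* (1.10 ± 0.55), *Trim63* (1.12 ± 0.64) and *Fbxo40* (2.96 ± 1.29). The medians of the 2 lists were 0.82 and 1.10, 0.62 and 0.56 without P1 replicate 2, and 0.03 and 0.15 with the covariate. Growth receptor and Hippo genes had a median of 0.36 (-0.13 with library totals as the scale, -0.19 with the covariate and 0.13 without P7 replicate 1), with *Erbb4* at 0.28 ± 0.41 and the TEAD cofactor *Vgll4* at 2.55 ± 0.96.

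Cell cycle genes held few reads and no call. Of 40 DNA replication genes none had an unadjusted p below 0.05, and the 4 most read, *Pola1*, *Pole*, *Lig1* and *Chaf1a*, had log2 fold changes of 0.61 ± 0.85, -0.38 ± 0.99, 0.65 ± 0.81 and 0.95 ± 1.21. Of 57 mitosis and cytokinesis genes 3 had an unadjusted p below 0.05 upward (3.59% over all genes) and 37 were above 0 (64.9% against 55.0% of all genes). Their median was 0.72, 0.36 without P7 replicate 2 and 0.29 with the covariate. It was 0.24 over the 48 members with reads on both days, and 0.70 with the 9 unread at P1 at their bound. *Kif20b* had 3, 28 and 10 reads at P1 and 50, 229, 81 and 113 at P7. *Cit*, the citron kinase of the contractile ring, was lower in every P7 pool (log2 fold change -0.67 ± 0.90). Among 30 G1 and DREAM complex genes (median 0.33, 0.00 without P1 replicate 2 and -0.35 with the covariate), 1 had an unadjusted p below 0.05 upward and 2 downward (3.59% and 2.01% over all genes). *Cdkn2b*, an inhibitor of CDK4 and CDK6, had 208, 51 and 120 reads at P1 and 0, 24, 10 and 22 at P7 (log2 fold change -3.08 ± 1.43, adjusted p = 0.658). *Ccng1*, a p53 target, had 150.0, 32.3 and 70.5 CPM at P1 and 8.86, 16.5, 23.5 and 3.74 at P7 (log2 fold change -2.67 ± 1.35). *Cdkn1a*, the p21 gene, had no read at P1 and 0, 15, 6 and 25 reads in P7 replicates 1 to 4.

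The PIDDosome is the platform that activates caspase-2 when centrioles accumulate, and 2 of its genes, *Casp2* and *Pidd1*, were at the limit of detection. *Casp2* had no read in the 3 P1 pools and 5, 3, 1 and 0 reads in the P7 pools (adjusted p = 0.658), and *Pidd1* had 0, 7 and 0 reads at P1 and 0, 23, 0 and 0 at P7. In the Casp2-depleted pools *Casp2* had 0, 0, 0 and 0 CPM at P1 and 2.33, 2.37, 0 and 0 at P7, so these reads do not check the genotype labels. *Cradd*, the gene of the adaptor RAIDD, had 10.8, 94.1 and 161 CPM at P1 and 141, 196, 129.8 and 165 at P7 (log2 fold change 0.84 ± 0.85, adjusted p = 0.928). *Ankrd26*, which anchors PIDD1 at the centriole, had 40.2, 89.9 and 18.2 CPM at P1 and 107, 149, 73.1 and 169 at P7 (log2 fold change 1.33 ± 1.02, adjusted p = 0.798). Both overlapped between the days. In the PIDDosome and p53 list of 17 tested genes the median was 1.29 (2.09 without P1 replicate 3 and 0.19 with the covariate) with 2 members at an unadjusted p below 0.05 upward and 1 downward (3.59% and 2.01% over all genes).

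No gene passed the test toward lower levels at P7. Named genes with 20 reads or more per library on average over the 7 libraries that lay lower in every P7 pool were ranked by unadjusted p. The first 10 were *Zmynd12*, *Gcm2*, *Wdr49*, *Tmprss15*, *Neu2*, *Hapln1*, *Spata1*, *Car1*, *Chrm3* and *Cadps*, each at an adjusted p = 0.658. *Chrm3*, a muscarinic receptor, had 272, 341 and 326 CPM at P1 and 62.0, 104, 148 and 71.0 at P7 (log2 fold change -1.70 ± 0.69). *Hapln1*, a link protein of the hyaluronan matrix, had 94.2, 131 and 53.1 CPM at P1 and 4.17, 10.8, 21.5 and 2.24 at P7 (-3.25 ± 1.26), and *Cadps*, a factor of vesicle release, 245, 274 and 165 CPM at P1 and 50.6, 85.5, 65.2 and 69.5 at P7 (-1.75 ± 0.76). The imprinted growth genes were the list with the lowest median, -0.29, and 8 of 25 above 0. The median turned to 0.16 without P1 replicate 4 and was -0.49 without P1 replicate 2 and -0.94 with the covariate. Its members *Plagl1*, a growth-suppressing zinc finger gene, with 950.0, 1659 and 1933 CPM at P1 and 316, 1331, 619.8 and 619 at P7 (log2 fold change -1.07 ± 0.48), and *Ddc*, imprinted in the fetal heart, with 1548, 2317 and 1304 CPM at P1 and 442, 1517, 541 and 459.7 at P7 (-1.22 ± 0.47), were lower on average but overlapped. With library totals as the scale, *Ddc* was called (log2 fold change -1.83), so that 7 genes were higher and 1 lower under that scaling.

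The genes lower at P7 had few reads and held many unnamed gene models. The 410 lower genes with an unadjusted p below 0.05 had a median of 5.29 reads per library, against 21.9 for the 732 higher ones. Gm and Rik gene models made up 49.5% of the lower genes, 16.5% of the higher and 26.1% of all tested. Olfactory receptor genes were 14 of the 410 and 3 of the 732, and summed over all of them the libraries held 3265, 1909 and 1998 CPM at P1 and 639, 629, 1189 and 1144 at P7. This sum moved with the share of reads on no gene, being highest in P1 replicate 2. Its part in the lower values of single genes was not tested beyond the fit with that share as a term, in which *Chrm3* had a log2 fold change of -1.47, *Hapln1* of -2.46 and *Cadps* of -0.91.

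In the Casp2-depleted pools of the same days, 5 genes passed (0.0245% of those tested), with *Mhrt*, *Ankrd1*, *Rn18s-rs5* and *Rbm25* among them, and 4 of the 5 were among the 10 of the controls. *Mhrt* had 5302, 6299.7, 4243 and 13417 CPM in the 4 P1 pools and 17266, 32624, 25395 and 20988 in the P7 pools (log2 fold change 1.72 ± 0.24, adjusted p = 1.22e-08). *Mapt* had 62.1, 23.8, 54.0 and 63.8 CPM at P1 and 508, 379, 249.6 and 249 at P7, again without overlap (log2 fold change 2.76 ± 0.67, adjusted p = 0.112). For *Ttn* the P1 pools spread over 10419, 1922, 4471 and 35824 CPM and the P7 pools over 25867, 25511, 31453 and 14978, and the log2 fold change was 0.89 ± 0.22. The highest P1 value was that of replicate 4, the pool with 36.8% of its reads on no gene where the other P1 pools had 49.8, 68.2 and 70.6%. *Mybpc3* and *Myh6* had log2 fold changes of 0.86 ± 0.32 and 0.64 ± 0.27, *Neat1* of 0.50 ± 0.56 and *Osbp* of 0.78 ± 1.22.

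No gene differed between the genotypes in its change from P1 to P7 after correction (0% of 20368 called by edgeR, smallest adjusted p = 0.606, and 1298 genes at an unadjusted p below 0.05). By DESeq2 66 genes were called, and by limma-voom 4 with TMM factors and 2 with quantile normalization. Among the genes called in the controls, the difference (control minus Casp2-depleted) was 1.32 ± 0.33 for *Ttn*, 1.35 ± 0.48 for *Mybpc3* and 3.07 ± 0.86 for *Neat1*, each at an adjusted p = 0.606. For *Mhrt* it was 0.14 ± 0.35 and for *Mapt* 0.63 ± 0.92. The *Tnni3* to *Tnni1* ratio was 0.944, 0.269, 0.340 and 1.10 at P1 and 2.61, 1.64, 2.34 and 2.07 at P7, and that of *Myh6* to *Myh7* 26.1, 74.9, 28.6 and 31.1 at P1 and 132, 243, 188 and 127 at P7, without overlap in these pools too. For *Ttn* over *Tnnt2* the days overlapped, with 1.47, 0.202, 0.432 and 1.43 at P1 and 2.24, 1.21, 2.34 and 1.41 at P7. In the same order, the P1 pools had 49.8, 68.2, 70.6 and 36.8% of their reads on no gene. The lower P1 ratios of *Tnni3* to *Tnni1*, 0.269 and 0.340, were those at 68.2 and 70.6%.

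By list, the medians of the controls and of the Casp2-depleted pools were 1.33 and 0.48 for the adult sarcomere, 1.19 and -0.09 for fatty acid oxidation, 1.32 and 0.15 for oxidative phosphorylation, 1.13 and 0.08 for splicing regulators, and 0.72 and 0.99 for mitosis and cytokinesis. Over all genes they were 0.21 and 0.07. The control median of mitosis and cytokinesis was 0.24 over the 48 members with reads on both days. Whether a list differed between the genotypes was not tested. In the controls, 24 of 26 list medians lay above that of all genes, 24 with library totals as the scale, 21 without P1 replicate 2 and 9 with the share of reads outside genes as a covariate, where 12 of the 26 medians changed sign. The cytosolic ribosome list had a median of 0.62 that moved to 2.18 without P1 replicate 3, 0.24 without P1 replicate 2 and -0.41 with the covariate. It was -0.54 with all 24 libraries in the fit, the left-out P1 replicate 1 among them. The members of this list share sequence with processed pseudogenes, so their counts are uncertain. Sex-linked genes had a median of 0.62 over 5 members (-1.38 under quantile normalization and also below 0 without P7 replicate 3).

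**Figure D5:**
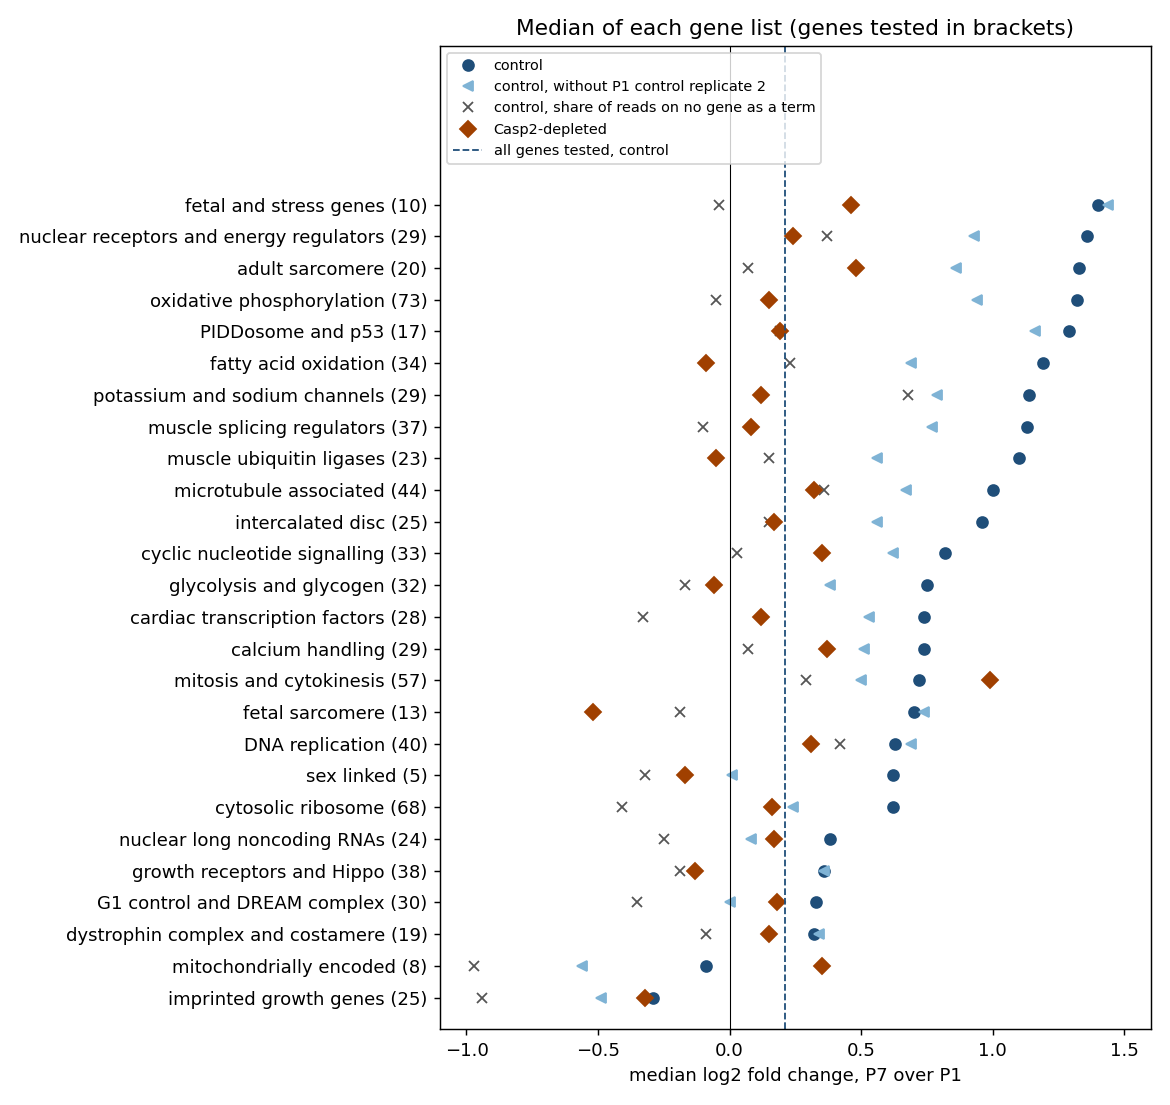
Median log2 fold change of P7 over P1 for 26 gene lists in controls, in controls without P1 control replicate 2, in controls with the share of reads outside genes as a covariate of the fit, and in Casp2-depleted CM nuclei, with a dashed line at the control median of all genes, 0.21. The adult sarcomere list goes from 1.33 to 0.86, 0.07 and 0.48 in that order.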

How the data were processed

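QuantSeq 3′ FWD libraries were made from RNA of sorted PCM1-positive nuclei of mouse ventricles. As the study and its deposited labels state, the authors checked reads with FastQC 0.11.8, trimmed them with cutadapt 4.0, aligned them to GRCm39 (Ensembl 108) with STAR 2.6.1e and counted them over whole genes with HTSeq 2.0.3. The values are these raw counts, 1 deposited table per library; the strand setting and any use of molecular identifiers are not given in the sources used here. Symbols were found for 56236 of 56923 gene identifiers, which hold 99.5% of the reads on genes. Reads on no gene were kept out of the tests, and their shares are given per library.

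Genes with 10 reads or more in all and a read in 3 libraries or more were tested (20368) with edgeR 4.0.16 in R 4.3.3 (glmQLFit and glmQLFTest at default settings, TMM factors, Benjamini-Hochberg adjustment) in 1 fit of 6 groups and 21 libraries, without the 3 libraries the study left out. The study itself used limma. A call needed an adjusted p under 0.05 and a log2 fold change whose size was over 1. An unadjusted p is from the same fit. The SE is the size of the log2 fold change divided by the square root of the F value of that test. Single library measures were compared by exact permutation tests, and ratios were taken on raw counts. DESeq2 1.42.0, limma 3.58.1 (voom), other filters, scalings and sets of libraries, a replicate block and each library left out were alternatives; the robust fit and the share outside genes as a covariate were added after seeing the data. The scripts were checked on simulated counts.

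Named were the called genes, the 10 higher and 10 lower genes with the smallest unadjusted p (no Gm or Rik names, 20 reads or more per library on average, no overlap), the most read members of each list with any member at an unadjusted p below 0.05 without overlap, and genes of the PIDDosome, the sarcomere and the sex chromosomes. Genes, lists and comparisons were chosen with earlier results of these data known. Each library is a separate replicate by its label, and the study's methods describe each replicate as a pool of hearts. Replicate pairs differed by more than sampling noise (chi-square per degree of freedom 17.8 to 46.8 over 9 pairs). Gene positions and transcript starts are from GENCODE vM39 and promoter sequences from the GRCm39 primary assembly. The results of 1 called gene and a few list members are not reported here. Depth was 1243967 to 2420016 reads on genes in the 7 libraries.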

Additional observations from a re-analysis of the deposited data

Results flagged for a closer look

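In 3 of the 36 sets of 4 P7 control values examined, 1 pool stood far from the other 3 by Dixon's criterion. These were *Zmynd12* at 1.30 CPM in P7 replicate 3, *Gcm2* at 0.521 CPM in P7 replicate 1 and *Car1* at 17.0 CPM in P7 replicate 3, each with no read in the other 3 pools. In such a set any read in 1 pool meets the criterion, and these genes had been picked as lower at P7. The usual rate of about 1 in 20 sets by chance therefore does not apply, and nothing is concluded from these flags. For none of 23 genes examined did the change from P1 to P7 differ between the genotypes by the test of the difference.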

How the results depend on the processing

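The number of called genes in the controls, 10, depended on the fit. It was 0 with the filterByExpr filter, 88 by DESeq2, 49 by limma-voom with TMM factors, 93 with quantile normalization, 1 with only the groups compared, 6 with all 24 libraries, 2 with the robust fit and 2 with the share of reads outside genes as a covariate. DESeq2 shared 4 genes with the 10 and limma-voom 1. Without single replicates the number ranged from 2 (without P1 replicate 2) to 12, with 5 without P7 replicate 2. In the Casp2-depleted pools, 5 genes became 0 with filterByExpr, 46 by DESeq2, 8 and 12 by limma-voom with TMM and quantile scaling, 0 with only the groups compared, 2 with all 24 libraries and 9 with the share outside genes as a covariate. The difference between the genotypes, with 0 genes, gave 1 without a filter, 66 by DESeq2, 4 and 2 by limma-voom, 1 with a replicate block, and 0 to 1 without single replicates. Replicate numbers did not pair the control libraries (correlations of deviations -0.05, -0.03 and -0.02), and a block on them gave 12 calls in the controls, 9 of them shared, and 7 in the Casp2-depleted pools. Genes without overlap numbered 1404 higher and 583 lower, 919 and 1139 on library totals and 311 and 191 with P1 replicate 1 included; without single replicates they ranged from 1730 to 2461 higher and from 728 to 1413 lower. *Rn18s-rs5* reversed to -0.07 under quantile normalization. Of 494 list medians under alternatives 70 moved by more than the spread between pools. The causes were not tested. Thinned to equal depth, the libraries gave 9 calls. The common biological coefficient of variation between pools was 1.5, and for genes without a read at P1 the depth gives a lower bound of the fold alone.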
